A study of Arabidopsis thaliana with 83 samples.

Results

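Transcript levels of untreated whole seedlings were compared directly between 2 natural accessions of Arabidopsis thaliana, Bay-0 and Sha, which are the parents of a mapping population. The comparison took the 3 Bay-0 and the 3 Sha arrays labelled 0 h, 6 of the 83 arrays of a series on the auxin response of 7 accessions at 4 times. The accession in the first group is given by its labels as ecotype Bay-0 and as the Bay-0 parent of a core population of Bay-0 and Shahdara, under stock N57923, although a further tag on the same arrays reads recombinant inbred line. The other group is named Shakdara (Sha), under stock N929, and its own labels do not call it a parent of that population. Each group was read as untreated because its time label is 0 h, and no treatment or dose is stated for it in the sources used here. Seed of both accessions had been stratified in the cold for 5 days and grown for 7 days in shaken liquid medium at 22 °C in constant light, with a yellow filter over the last 24 h. Whether the 3 arrays of a group stand for 3 cultures is not given by the labels, so the spread among arrays may be technical. The p-values and standard errors rest on a spread pooled over all 83 arrays of the series (28 groups), not on the 6 arrays alone. Arrays of 1 accession carry consecutive serial numbers in their titles (1 block per accession), so accession and any order of processing cannot be told apart.

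Natural accessions of Arabidopsis are inbred lines collected at different places, and they differ in gene sequence, in the presence of whole genes and in gene regulation. When 2 accessions are crossed and their descendants inbred, each line carries a mosaic of both parental genomes, and traits or transcript levels can be mapped to the segments that separate the lines. A transcript that differs between the parents is a starting point for such mapping, and the loci of glucosinolate synthesis are textbook examples. The ATH1 array reads each gene with short probes designed on the Col-0 genome, so fewer transcripts and a poorer match of the probes to an accession's sequence cannot be told apart from signal alone. In whole seedlings, fewer cells of a type and less RNA per cell cannot be told apart either.

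The 6 arrays were alike in scale. Their median signals were 38.4, 38.8 and 38.7 in Bay-0 and 39.0, 42.4 and 38.9 in Sha. Across tested probe sets, which are not independent replicates, arrays correlated at r = 0.982 to 0.988 within Bay-0, at 0.974 to 0.983 within Sha and at 0.929 to 0.94 between them. The ratio of 3' to 5' signal of the actin control, a sign of RNA quality, was 0.87 ± 0.29 in Bay-0 and 2.196 ± 0.457 in Sha, and that of GAPDH was 0.995 ± 0.055 and 0.847 ± 0.147 (mean ± SD, n = 3). The exact permutation test gave p = 0.1 for actin, the smallest value that 3 against 3 arrays allow, and p = 0.3 for GAPDH (two-sided). The array's other set of control probe sets gave actin ratios of 3.51 ± 0.134 in Bay-0 and 13.4 ± 4.78 in Sha. Its GAPDH ratios were 1.64 ± 0.183 and 1.43 ± 0.203, and the same test gave the same p-values. Whether the actin ratio moves with any result below was not tested. The leaf gene RCA, which activates Rubisco, was high in both groups, with a signal of 2337 ± 211 in Bay-0 and 2359 ± 275 in Sha. The other nuclear photosynthesis genes tested, LHCB4.1 and LHCB4.2, differed in opposite directions by less than 2-fold, as given below. The root hair expansin EXPA7 was low in both groups, at 37.1 ± 11.6 in Bay-0 and 32.3 ± 7.21 in Sha. Among the later arrays used for comparison, replicate 1 of Sha at 3 h stood apart. AT2G25510 read 529 and AT2G15130 read 209 there, against at most 29.3 and 4.26 in the other 11 Sha arrays, and both genes were high in Bay-0. Of 13 genes with a Sha mean under 16 and a Bay-0 mean of 100 or more at 0 h these 2 were above 100 in that array, and 0 were in the other later Sha arrays. The cause was not tested. The total counts of calls at 3 h and the differences of these 2 genes at 3 h are also given without that array. Other values at 3 h include it.

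Differences were taken as Bay-0 minus Sha on log2(signal + 16) and are given ± the standard error (SE) of a model fitted over all 83 arrays. A call needed a limma p under 0.05 after Benjamini-Hochberg adjustment and a difference of at least 2-fold. At 0 h 600 of 15922 tested probe sets were called, which is 3.77% of those tested. Of these, 345 were higher in Bay-0 (2.17%) and 255 were higher in Sha (1.6%). The 3 signals of one accession lay entirely above those of the other in all 600, and such a separation was seen in 36.6% of all tested probe sets. The size of a called difference had a median of 1.37 on the log2 scale for those higher in Bay-0 and 1.26 for those higher in Sha, while the size over all tested probe sets had a median of 0.20. A 4-fold difference was passed by 75 probe sets higher in Bay-0 and 35 higher in Sha, and a 16-fold difference by 8 and 3. Without the minimum fold 1992 probe sets were higher in Bay-0 and 2491 in Sha at that adjusted p, so the share of calls in favour of Bay-0 fell from 57.5% to 44.4%. The counts also moved with the constant added to the signals, to 621 and 586 with 1 added and to 145 and 82 with 64 added.

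**Figure D1:**
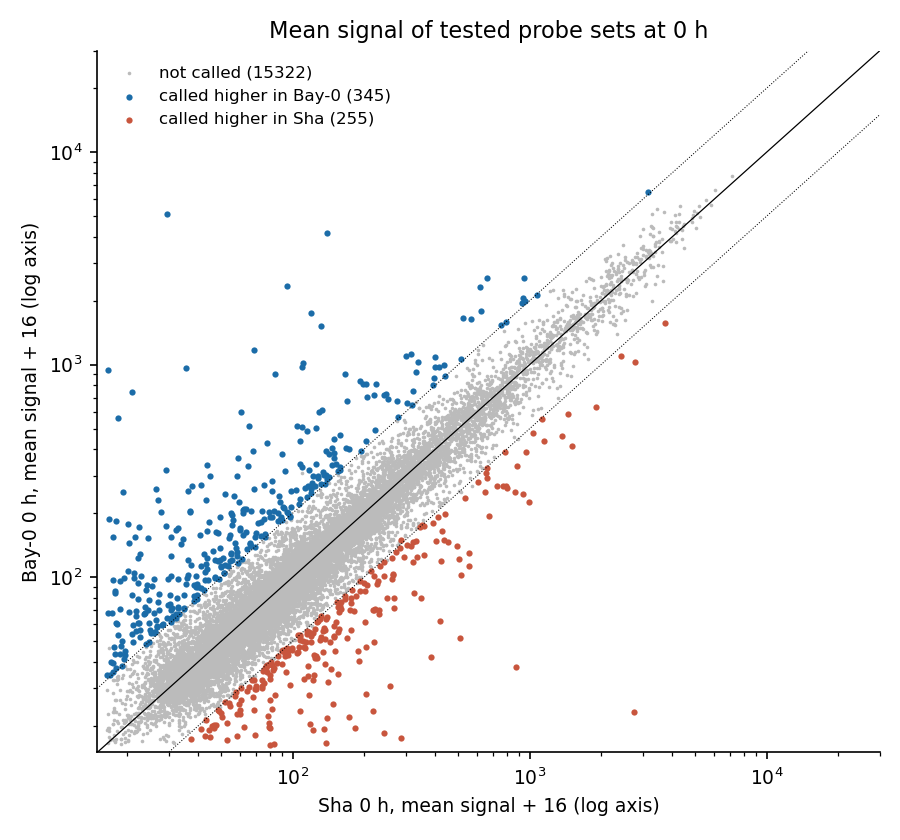
Mean signal of the 3 Bay-0 arrays (vertical) against that of the 3 Sha arrays (horizontal) at 0 h for 15922 tested probe sets, with 16 added and both axes on a log scale. Blue points are the 345 probe sets called higher in Bay-0 and red points the 255 called higher in Sha; the solid line marks equal signal and the dotted lines 2-fold differences.

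A subset of the differences ran from near the floor of the array to a high signal. For 18 probe sets all 3 Sha arrays were under 16 while the Bay-0 mean was 100 or more, and for 12 the reverse held, of which 10 and 9 were listed with 1 gene. Of all calls, 331 had 1 listed gene, 183 higher in Bay-0 and 148 higher in Sha, and only these are named. Some called genes had a second tested probe set with 1 gene, which was not called. Among those called higher in Sha it gave -0.228 for AT2G30600, -0.104 for AT3G48570, 0.146 for AT3G50590, -0.185 for AT5G24710 and -0.942 for AT3G53670. Among those called higher in Bay-0 it gave 0.762 for AT2G25760 and 0.726 for AT5G44820. A call thus describes 1 probe set, and the cause of such disagreement was not tested. Probe sets listed with several genes were called at 9.91% (32 of 323), those with 1 gene at 3.82% (331 of 8673) and those with none at 3.42% (237 of 6926). Where a signal lies under 16, the added constant shrinks the log2 difference, so the sizes given for such genes understate the ratio of the signals.

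The gene with the largest difference was AT2G25510 on chromosome 2. Its signals were 4962, 5356 and 4909.9 in the 3 Bay-0 arrays and 1.95, 9.15 and 29.3 in the 3 Sha arrays, a difference of 7.54 ± 0.44 (adjusted p = 4.67e-24). All 3 Bay-0 arrays were bright and all 3 Sha arrays were under 30. AT2G15130, also on chromosome 2, read 607, 921 and 1252 in Bay-0 and 0.312, 0.916 and 0.631 in Sha (5.77 ± 0.33, adjusted p = 2.35e-24). AT1G14960 read 1368, 798 and 675 against 17.1, 16.8 and 24.6 (4.70 ± 0.22, adjusted p = 3.88e-29), and AT5G35940 read 1505, 999 and 950.3 against 34, 71.2 and 54.1 (4.08 ± 0.22, adjusted p = 4.07e-26). The Bay-0 replicates of these 3 genes differed among themselves by more than those of AT2G25510, yet none came near any Sha array. A further 9 of the 15 largest differences towards Bay-0 belonged to genes listed by locus number alone. They were AT5G23840 (3.49), AT4G20480 (3.48), AT1G65500 (3.44), AT4G11000 (3.34), AT5G38020 (3.28), AT5G26260 (3.16), AT3G43740 (3.15), AT2G14460 (3.13) and AT1G66860 (3.07), each with an adjusted p of 3.05e-15 or less.

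Among genes with a symbol, AOP3 showed the largest difference. AOP3 (AT4G03050, chromosome 4) encodes a 2-oxoglutarate-dependent dioxygenase that converts methylsulfinylalkyl glucosinolates to hydroxyalkyl forms. Its signals were 631, 775 and 768 in Bay-0 and 2.97, 8.86 and 3.55 in Sha, so that all Sha arrays were near the floor (5.14 ± 0.21, adjusted p = 2.43e-32). TUA6 (AT4G14960), an alpha-tubulin of the microtubules, read 1828, 1715 and 1668 in Bay-0 and 72.4, 136 and 103 in Sha (3.91 ± 0.12, adjusted p = 1.45e-39). TPP2 (AT4G20850), the large protease tripeptidyl peptidase II, read 472, 532 and 486 against 52.6, 44.2 and 51.4 (2.97 ± 0.10, adjusted p = 1.15e-36). In both TUA6 and TPP2 the replicates lay close together and the Sha signal was low but not at the floor. SBT3.5 (AT1G32940), a subtilisin-like protease of the cell wall, read 80.1, 70.4 and 98 against 1.82, 7.45 and 7.2 (2.204 ± 0.19, adjusted p = 3.25e-16). CSA1 (AT5G17880), a TIR-type nucleotide-binding leucine-rich repeat protein of the disease resistance class, read 65.9, 82.6 and 85.4 against 0.958, 16.5 and 1.21 (2.14 ± 0.15, adjusted p = 7.63e-20). Its Sha arrays were not alike, with 1 of the 3 at 16.5 and the other two under 2.

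The remaining genes with a symbol that were higher in Bay-0 were of mixed function, and all called genes with a symbol (33 in this direction and 34 in the other) were added to the named genes after their values had been seen. AER (AT5G16970), an alkenal reductase, gave 127 ± 5.62 in Bay-0 and 17.7 ± 1.04 in Sha (2.08 ± 0.18, adjusted p = 3.27e-15). SUFE2, an activator of sulfur transfer for iron-sulfur clusters, gave 110.0 ± 13.6 in Bay-0 and 14.8 ± 7.79 in Sha (2.06 ± 0.16, adjusted p = 2.48e-18), and ETFBETA, a subunit of the mitochondrial electron transfer flavoprotein, gave 166 ± 11.4 in Bay-0 and 28.6 ± 9.89 in Sha (2.05 ± 0.18, adjusted p = 2.63e-15). GLR2.7, a glutamate receptor-like channel, read 46.3, 42.1 and 46.1 in Bay-0 and 2.68, 2.5 and 0.716 in Sha (1.76 ± 0.19, adjusted p = 1.7e-11). NET4B, an actin-binding NETWORKED protein, gave 169.9 ± 8.03 in Bay-0 and 40.0 ± 4.56 in Sha (1.73 ± 0.12, adjusted p = 5.05e-20). Prx37, a class III peroxidase, was higher by 1.57 ± 0.18, CCT2, which makes CDP-choline for phosphatidylcholine, by 1.51 ± 0.14, and OSM34, an osmotin-like protein, by 1.29 ± 0.24 (adjusted p = 3.2e-11, 4.84e-15 and 2.2e-05). GRXC1, a glutaredoxin, was higher by 1.14 ± 0.14 (adjusted p = 3.88e-10), CEF by 1.15 ± 0.13 (adjusted p = 5.64e-11), and CHX16, of the cation/proton exchanger family, by 1.12 ± 0.17 (adjusted p = 2.85e-07). IQD22, a calmodulin-binding protein (1.001 ± 0.18, adjusted p = 5.29e-06), and CCOAMT, a caffeoyl-CoA O-methyltransferase (1.004 ± 0.17, adjusted p = 1.61e-06), were among those closest to the 2-fold limit. With 64 added to the signals GLR2.7, CCT2, GRXC1, CEF and CHX16 fell below 2-fold, at 0.72, 0.64, 0.85, 0.92 and 0.57.

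In the direction of Sha, AT1G52050 on chromosome 1 differed most. It read 22.6, 24.1 and 18.8 in Bay-0 and 744, 867 and 966 in Sha (-4.53 ± 0.27, adjusted p = 6.06e-23). AT5G45500 on chromosome 5 read 2.6, 0.796 and 1.1 in Bay-0 and 328, 199 and 287 in Sha (-4.01 ± 0.16, adjusted p = 5.83e-33), and AT1G23960 read 0.919, 5.53 and 1.08 and 267, 197 and 219 (-3.72 ± 0.14, adjusted p = 7.82e-34). AT5G45500 and AT1G23960 were at the floor in every Bay-0 array. AT3G30360 was also at the floor in Bay-0, with 0.58, 0.532 and 0.946 in Bay-0 and 129, 132 and 107 in Sha (-3.05 ± 0.12, adjusted p = 5.83e-33). Other large differences towards Sha were those of AT4G29200 (-3.23), AT2G43535 (-3.15), AT3G19515 (-3.06), AT2G01090 (-2.98), AT3G57770 (-2.83), AT2G15560 (-2.76), AT3G22570 (-2.69), AT2G04800 (-2.67) and AT4G02850 (-2.57), with adjusted p-values of 1.74e-17 or less.

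Of the genes with a symbol, ECS1 (AT1G31580), a cell wall protein, read 13.2, 14.4 and 9.33 in Bay-0 and 211, 227 and 129.8 in Sha (-2.83 ± 0.31, adjusted p = 2.15e-11). DI21 (AT4G15910), named as drought-induced, read 97.8, 82.4 and 79.3 against 471, 505 and 514 (-2.33 ± 0.19, adjusted p = 2.66e-16). SKU5 (AT4G12420), a GPI-anchored glycoprotein of directional root growth, read 209.9, 216 and 202 against 881, 1054 and 1002 (-2.14 ± 0.12, adjusted p = 3.3e-24). All 3 had replicates well apart from those of the other accession, and SKU5 was bright in both. SQN (AT2G15790), the cyclophilin SQUINT that takes part in the change from juvenile to adult leaves, read 16.5, 12.6 and 6.42 against 94.8, 99.9 and 108 (-2.09 ± 0.14, adjusted p = 3.09e-20). ETP2 (AT3G18910), an F-box protein that targets the ethylene signalling protein EIN2, read 2.99, 9.35 and 1.84 against 51.9, 71.9 and 67.8 (-1.95 ± 0.13, adjusted p = 2.51e-21), so it was near the floor in Bay-0. RALFL32, a RALF-like peptide, gave 64.2 ± 21.8 in Bay-0 and 251 ± 36.6 in Sha (-1.76 ± 0.16, adjusted p = 4.52e-15), and ALN, the allantoinase of purine breakdown, gave 54.9 ± 14.4 in Bay-0 and 206 ± 18.6 in Sha (-1.66 ± 0.15, adjusted p = 3.44e-15). ALDH6B2, a methylmalonate semialdehyde dehydrogenase, gave 134 ± 5.29 in Bay-0 and 419 ± 27.1 in Sha (-1.53 ± 0.12, adjusted p = 6.37e-17). The ER-body protein NAI2, known from Brassicaceae endomembranes, gave 461 ± 140.1 in Bay-0 and 1021 ± 104 in Sha (-1.15 ± 0.14, adjusted p = 1.24e-10).

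Further called genes with a symbol differed less and were of mixed function. PAM68, an assembly factor of photosystem II, differed by -1.499 ± 0.19, and CcdA, a thylakoid protein of thiol transfer, by -1.17 ± 0.18 (adjusted p = 7.17e-10 and 1.69e-07). BUBR1, of the spindle checkpoint, differed by -1.22 ± 0.16, and KELP, a transcriptional coactivator, by -1.23 ± 0.15 (adjusted p = 7.91e-09 and 2.09e-10). The difference of ARR15, a type-A response regulator of cytokinin signalling, was -1.097 ± 0.20 (adjusted p = 7.73e-06). Its Bay-0 arrays read 0.931, 25.4 and 15.6 and its Sha arrays 53, 46 and 34.7, and it fell below 2-fold without Bay-0 replicate 1 (-0.73) or Sha replicate 1 (-0.997). SBT4.12, a subtilase (-1.04 ± 0.21, adjusted p = 4.87e-05), the kinesin KICP-02 (-1.09 ± 0.18, adjusted p = 8.47e-07), GILT, a thiol reductase (-1.03 ± 0.18, adjusted p = 7.8e-06), and SK18, a SKP1-like protein (-1.01 ± 0.13, adjusted p = 1.02e-09), were the smallest called differences named in this direction. With 64 added, PAM68, CcdA, BUBR1, KELP, ETP2 and ARR15 stood at -0.97, -0.58, -0.47, -0.80, -0.89 and -0.49, all short of 2-fold.

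**Figure D2:**
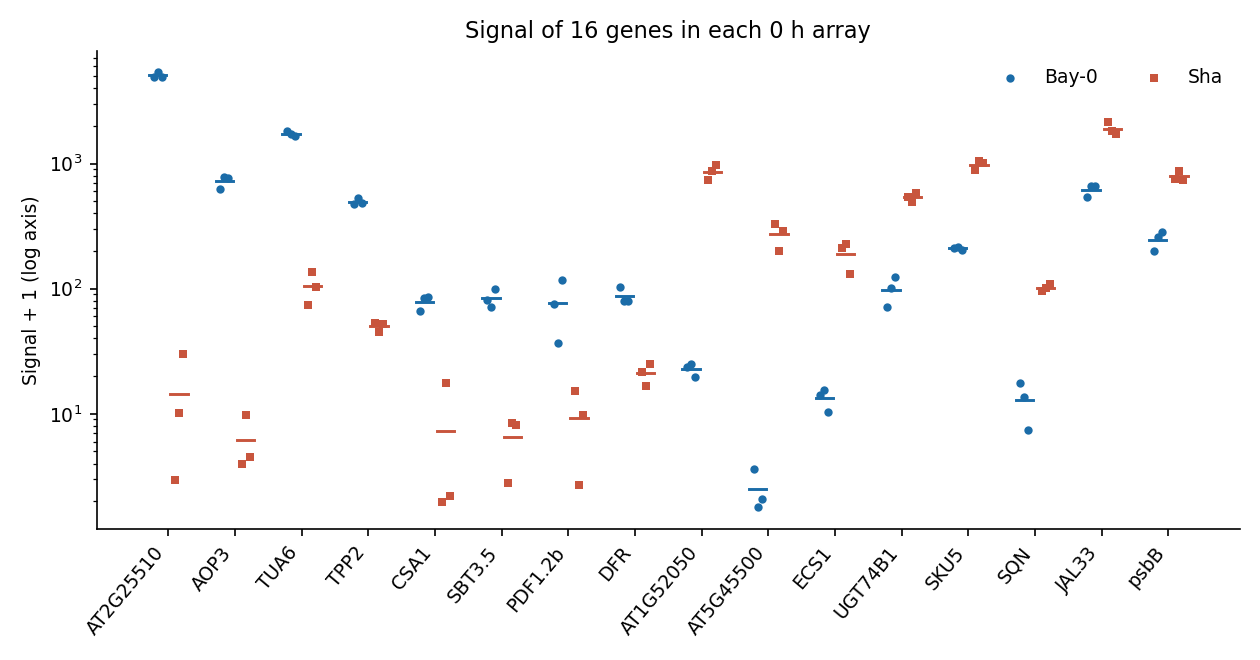
Signal of 16 genes in each of the 3 Bay-0 arrays (blue circles) and 3 Sha arrays (red squares) at 0 h, with 1 added and the vertical axis on a log scale. Short lines are group means; the first 8 genes from the left are higher in Bay-0 and the last 8 in Sha, with no overlap between groups in any of them.

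The gene lists and families in this and the next paragraphs were chosen with earlier results of these data known. Their shares beside that of all tested probe sets are a description and no test. Glucosinolates are sulfur-rich defence compounds of the Brassicaceae, made from methionine or tryptophan and cut by myrosinase when tissue is damaged. Of the 28 genes on the list for aliphatic synthesis 6 had a tested probe set with 1 gene, and AOP3 was the only one of these called. AOP1, a relative of AOP3 from the same cluster, gave 53.2 ± 6.41 in Bay-0 and 33.8 ± 10.1 in Sha (0.49 ± 0.15, adjusted p = 0.0111). BCAT4, the transaminase that starts elongation of the methionine chain, gave 1846 ± 78.6 in Bay-0 and 2364 ± 283 in Sha (-0.35 ± 0.12, adjusted p = 0.0206). The median difference of the 6 was -0.04, against -0.03 over all tested probe sets. For the indole and core pathway, UGT74B1 (AT1G24100), the glucosyltransferase that completes the glucosinolate core, was the only member tested, and it was called higher in Sha. Its signals were 69.8, 99.4 and 123 in Bay-0 and 544, 493 and 579 in Sha (-2.31 ± 0.16, adjusted p = 2.07e-20). PYK10, a beta-glucosidase of ER bodies on the list for breakdown, gave 3906 ± 334 in Bay-0 and 4369 ± 796 in Sha (-0.15 ± 0.10, adjusted p = 0.305). Other genes of these lists, AOP2 and MAM1 among them, were not analysed here.

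Genes of late flavonoid and anthocyanin synthesis, which make the red pigments of seedlings under strong light, were in part higher in Bay-0. Of 5 tested members 2 were called, both higher in Bay-0, where 3.77% of all tested probe sets were called, and 4 were higher in Bay-0 without the minimum fold, with a median difference of 0.98 against -0.03 over all tested probe sets. DFR (AT5G42800), the dihydroflavonol reductase that leads into anthocyanins, read 102, 78.6 and 78.2 in Bay-0 and 20.6, 15.8 and 24.2 in Sha (1.497 ± 0.19, adjusted p = 1.53e-09). UF3GT (AT5G54060), a glycosyltransferase of anthocyanins, read 57.9, 42.5 and 63.1 against 10.7, 16.5 and 6.77 (1.37 ± 0.21, adjusted p = 3.91e-07). The 2 genes stood apart in every array, at modest signals. AT4G14090 gave 32.2 ± 13 in Bay-0 and 8.29 ± 5.58 in Sha (0.98 ± 0.20, adjusted p = 9.89e-05) and UGT78D2, a flavonoid 3-O-glucosyltransferase, gave 94.6 ± 10.9 in Bay-0 and 44.9 ± 0.279 in Sha (0.85 ± 0.13, adjusted p = 1e-07), both short of 2-fold, while UGT78D1, which adds rhamnose to flavonols, gave -0.29 ± 0.18 (adjusted p = 0.241). With 64 added to the signals DFR and UF3GT were no longer called (0.83 and 0.65).

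Defensins are small antifungal peptides. Of 9 tested defensin and thionin genes picked by name 2 were called, both higher in Bay-0. This is a share of 22.2% against 3.77% over all tested probe sets. Relatives listed by locus number alone can be missing from the count, and the family was chosen with earlier results of these data known. PDF1.2b (AT2G26020), a jasmonate and ethylene marker, read 74.9, 35.9 and 117 in Bay-0 and 14.2, 1.71 and 8.86 in Sha (1.85 ± 0.26, adjusted p = 4.04e-08), on a probe set of the kind that can also bind related sequences. PDF1.4 (AT1G19610) read 116, 102 and 119 against 22.2, 32.4 and 24.9 (1.60 ± 0.17, adjusted p = 2.39e-12). PDF1.2b varied more than 3-fold among the Bay-0 arrays while PDF1.4 stayed between 102 and 119. In contrast PDF2.5 gave 156 ± 34.6 in Bay-0 and 284 ± 55.3 in Sha (-0.80 ± 0.22, adjusted p = 0.00286), and LCR68 and LCR69, the brightest of the 9, gave 0.02 ± 0.12 and 0.20 ± 0.10 (adjusted p = 0.928 and 0.153). The median of the 9 was 0.46. Of 3 tested genes on the salicylic acid list 1 was called, AT5G03350, at 402, 581 and 473 in Bay-0 and 142, 98.8 and 87.8 in Sha (2.01 ± 0.20, adjusted p = 7.09e-13), while GRX480 gave 0.50 ± 0.17 and SAG101 0.19 ± 0.24. CHI (AT2G43570), listed as a chitinase, gave 217 ± 55.8 in Bay-0 and 91.6 ± 2.51 in Sha (1.09 ± 0.26, adjusted p = 0.0009), and dropped to 0.95 without Bay-0 replicate 3. With 64 added PDF1.2b, PDF1.4 and CHI stood at 0.92, 0.96 and 0.83.

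Of the low-oxygen list, genes that are induced when roots or submerged tissue run short of oxygen, the 3 tested members lay towards Sha. The list was chosen with earlier results of these data known, so its share is no test. All 3 tested members were higher in Sha at the adjusted p and 2 of them were called, with a median difference of -1.33, where 3.77% of all tested probe sets were called. AT3G10040 read 42.7, 60.4 and 64.5 in Bay-0 and 208, 273 and 273 in Sha (-1.90 ± 0.17, adjusted p = 1.82e-15), and AT4G10270 read 293, 415 and 408 against 922, 949 and 966 (-1.33 ± 0.16, adjusted p = 2.48e-10). AT1G33055 gave 143 ± 47.2 in Bay-0 and 237 ± 48.8 in Sha (-0.70 ± 0.21, adjusted p = 0.00677), short of 2-fold. Other genes of the list of 14, ADH1 and PDC1 among them, were not analysed here, so the counts cover these 3 genes.

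The enzyme families tested held few called members, and their counts are to be read against the 3.77% called over all tested probe sets. Of 13 tested cytochrome P450 genes 2 were called (15.4%), CYP71B23 and CYP71B24, both higher in Bay-0. CYP71B24 read 37.6, 51.7 and 59 in Bay-0 and 11.4, 0.758 and 5.33 in Sha (1.60 ± 0.18, adjusted p = 5.1e-11) and CYP71B23 gave 552 ± 26.2 in Bay-0 and 263 ± 81.5 in Sha (1.07 ± 0.21, adjusted p = 5.18e-05), falling to 0.94 without Sha replicate 1 and to 0.96 without Sha replicate 3. Of 30 tested UDP-glycosyltransferases with a UGT symbol 2 were called (6.67%), UGT74B1 higher in Sha and UGT72E3, which glucosylates lignin precursors, higher in Bay-0 (1.13 ± 0.22, adjusted p = 2.95e-05). UGT72E3 fell to 0.93 without Bay-0 replicate 1 and to 0.75 without Sha replicate 1. GT72B1, a glycosyltransferase of monolignols and xenobiotics, was higher in Sha (-1.15 ± 0.15, adjusted p = 1.46e-09). Among 12 glutathione S-transferases 2 were called (16.7%), and GSTU16 (1.24 ± 0.16, adjusted p = 1.71e-09) and ATGSTF13 (1.08 ± 0.18, adjusted p = 2.82e-06) were higher in Bay-0, with GSTU25, at -0.87 ± 0.16, furthest towards Sha and short of 2-fold. ATGSTF13 stood at 0.96 without Bay-0 replicate 1 and at 0.97 without Sha replicate 1. Of 16 glycosyl hydrolases 2 were called (12.5%), and BGLU33 (1.16 ± 0.21, adjusted p = 1.29e-05) and BGLU16 (1.05 ± 0.14, adjusted p = 2.27e-09) were higher in Bay-0, the latter 0.89 without Bay-0 replicate 1 and 0.94 without Sha replicate 1.

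Expansins loosen cell walls during growth. Of 15 tested members 1 was called, a share of 6.67% against 3.77% over all tested probe sets. It was EXLA2, which read 7.59, 12.4 and 11.7 in Bay-0 and 50.6, 27.1 and 56.1 in Sha (-1.16 ± 0.16, adjusted p = 4.04e-08). A further 3 expansins, EXPA8, EXLA3 and EXPB1, passed the adjusted p towards Sha without reaching 2-fold and none passed it towards Bay-0, with a median of -0.31. JAL33 (AT3G16450), a jacalin-related lectin, read 535, 659.9 and 662 against 2149, 1812 and 1723 (-1.59 ± 0.17, adjusted p = 2.39e-12), and JAL22 gave 317 ± 60.7 in Bay-0 and 600.3 ± 18.1 in Sha (-0.91 ± 0.15, adjusted p = 1.27e-06). JAL34 gave -0.32 ± 0.14 (adjusted p = 0.0782), so 1 of 3 tested jacalins with a JAL symbol was called, too few to read as a share. Jacalin-related genes listed by locus number alone can be missing from this count. Of 7 xyloglucan hydrolases 0 reached the 2-fold call by limma, while 1, XTH20, passed the adjusted p towards Bay-0 (0.88 ± 0.19, adjusted p = 0.000156) and 3 towards Sha, XTH33 (-0.78 ± 0.15, adjusted p = 3.07e-05) among them. With 64 added EXLA2, GT72B1, GSTU16, BGLU33, CYP71B24 and CYP71B23 were at -0.53, -0.98, 0.57, 0.65, 0.70 and 0.94.

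Plastid genes, transcribed from the chloroplast's own genome, were called more often than those of any nuclear chromosome and mostly higher in Sha. Of 67 tested plastid genes 12 were called higher in Sha and 2 higher in Bay-0, or 20.9%, where the 5 nuclear chromosomes lay between 2.98% and 4.18%. The median difference of the plastid genes was -0.33, and 48 of the 67 lay below 0. Among ribosomal proteins, rps2 read 125, 215 and 196 in Bay-0 and 581, 829.7 and 561 in Sha (-1.80 ± 0.20, adjusted p = 1.71e-11), and rps4 read 1305, 1723 and 1661 against 3921, 3542 and 3705 (-1.25 ± 0.16, adjusted p = 2.39e-09). Of the photosystem genes, psbB, for the CP47 antenna of photosystem II, read 199, 256 and 284 against 759, 872 and 738 (-1.63 ± 0.33, adjusted p = 7.54e-05). The signals of rps2, rps4 and psbB did not overlap between accessions. For rps2 and psbB Bay-0 was also below the other 5 accessions at 0 h, as given below. The ATP synthase genes atpH (-1.48 ± 0.28, adjusted p = 1.57e-05) and atpF (-1.36 ± 0.23, adjusted p = 3.21e-06) were higher in Sha, as were ycf4 (-1.17 ± 0.24, adjusted p = 6.74e-05), rpl14 (-1.16 ± 0.19, adjusted p = 1.5e-06) and psaJ (-1.15 ± 0.20, adjusted p = 4.29e-06). The genes for the plastid RNA polymerase went both ways, with rpoA (1.05 ± 0.21, adjusted p = 6.13e-05) and rpoB (1.03 ± 0.23, adjusted p = 0.000304) higher in Bay-0 and rpoC2 (-1.09 ± 0.22, adjusted p = 4.94e-05) higher in Sha. Other plastid genes showed no call, among them atpB, with 5053 ± 251 in Bay-0 and 4880.4 ± 958 in Sha, petB, with 4134 ± 42.1 in Bay-0 and 4132 ± 575 in Sha, and rbcL, for the large subunit of Rubisco, with 245 ± 49.6 in Bay-0 and 271 ± 95.8 in Sha.

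Some of the plastid differences rested on Sha replicate 2, the array with the highest median signal. In the 3 Sha arrays psaA read 229.8, 774 and 304 and atpI read 27.6, 100.7 and 34.9, against 113, 128 and 149 and 11.4, 13.6 and 15.9 in Bay-0, differences of -1.45 ± 0.37 and -1.11 ± 0.25 (adjusted p = 0.00185 and 0.000277). Without replicate 2 psaA stood at -0.95, atpI at -0.67, rpoC2 at -0.80, ndhH at -0.98 and rpoA at 0.65, none of them past 2-fold, and 10 plastid genes were called higher in Sha and 2 in Bay-0. Leaving out Bay-0 replicate 1 moved rpoC2 to -0.93, leaving out Bay-0 replicate 2 moved rpoA to 0.89, and rpoB stood at 0.99, 0.96 and 0.83 without Bay-0 replicate 2, Bay-0 replicate 3 or Sha replicate 1. Over all 6 such fits 10 to 16 plastid genes were called higher in Sha and 1 or 2 in Bay-0. With 64 added, 8 and 1 were called. In the arrays of the later times 13, 10 and 17 plastid genes were higher in Sha at 30 min, 1 h and 3 h, with 1, 1 and 0 higher in Bay-0. The median signal over the plastid genes was 414, 462 and 496 in the Bay-0 arrays at 0 h and 688, 668 and 798 in the Sha arrays. Their summed signal was 61352, 69864 and 72493 in Bay-0 and 69978, 79558 and 77573 in Sha. The groups did not overlap in the median and overlapped in the sum.

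**Figure D3:**
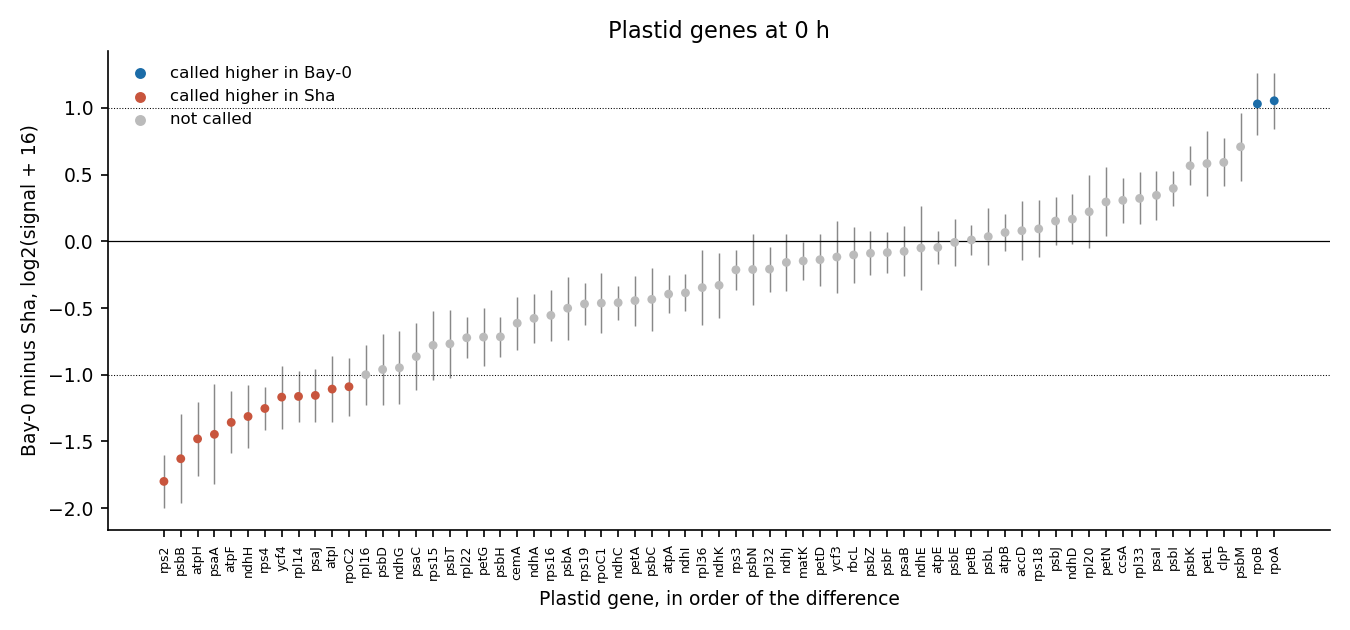
Bay-0 minus Sha difference at 0 h on log2(signal + 16) for each of 67 tested plastid genes, in order of the difference, with bars of 1 SE of the model. Red points are the 12 genes called higher in Sha and blue points the 2 called higher in Bay-0; dotted lines mark 2-fold differences, and 48 of the 67 genes lie below 0.

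Some called genes were next to each other in the order of tested genes. Genes without a tested probe set of their own were skipped, so a pair need not be adjacent in the genome. The percentage called was 2.98, 3.91, 4.00, 4.18 and 3.77 on chromosomes 1 to 5. Among 8498 pairs of neighbouring tested genes, by locus number on a chromosome, 26 had both members called and 18 of these in the same direction. Of 313 called nuclear genes 51 (16.3%) had a called neighbour on at least 1 side, and so had 558 of the 8190 tested genes that were not called (6.81%). This is a description with no test. The pair with the largest summed difference was AT5G45500 (-4.01) and AT5G45510 (-2.11), both higher in Sha. Next came AT1G65490 (2.30) with AT1G65500 (3.44) and SBT3.5 (2.204) with AT1G32970 (2.84), all higher in Bay-0. AT5G23830 (1.53) and AT5G23840 (3.49) were higher in Bay-0, as were AT4G10970 (1.60) and AT4G11000 (3.34), while AT3G19515 (-3.06) and AT3G19520 (-1.89) were higher in Sha. AT5G45510 read 93.6, 127 and 119.9 in Bay-0 and 548, 564 and 506 in Sha, and AT1G32970 read 232, 186 and 143 against 12.9, 12 and 10.7. Near-identical neighbours can share probes, which was not tested.

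The same contrast was then read in the 18 Bay-0 and Sha arrays of the later times, which share no array with the 0 h comparison and belong to a time course of the auxin response, per the series title. At 30 min 862 probe sets were called (5.41% of those tested), at 1 h 553 (3.47%) and at 3 h 564 (3.54%). Of the 600 calls at 0 h, 453 were called the same way at 30 min (75.5%), 402 at 1 h (67%) and 365 at 3 h (60.8%). Taken as shares of the later calls, these are 52.6%, 72.7% and 64.7%. The sign was kept by 592, 584 and 575 of the 600, and 1 probe set was called the other way at 1 h and 1 at 3 h. At all 4 times 297 were called the same way, 170 higher in Bay-0 and 127 higher in Sha. Without replicate 1 of Sha at 3 h the calls at 3 h numbered 309 and 269 in place of 303 and 261, and 367 of the 600 were called the same way.

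Several of the genes described above were called at every time. TUA6 differed by 3.91, 4.46, 4.07 and 4.08 at 0 h, 30 min, 1 h and 3 h, and TPP2 by 2.97, 2.81, 2.89 and 2.76. AT5G45500 differed by -4.01, -4.45, -4.50 and -4.31, and UGT74B1 by -2.31, -2.58, -2.80 and -2.35. All 4 genes fell short of the criteria for a change with time. AT2G25510 differed by 7.51, 7.53 and 6.15 at the 3 later times, and the last value became 7.66 without replicate 1 of Sha at 3 h. AT2G15130 differed by 5.91 at 3 h and 7.15 without the same array.

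A difference that changed with time was found for 472 probe sets (2.96%), by a moderated F test over the 4 times and at least 2-fold between the largest and smallest difference. Of the 600 calls at 0 h 123 were among them, 86 higher in Bay-0 and 37 higher in Sha. The flavonoid genes DFR and UF3GT were both called at 0 h and not at 3 h. The signal of DFR was 86.2 ± 13.6 in Bay-0 and 20.2 ± 4.19 in Sha at 0 h and 9.78 ± 1.94 and 11.2 ± 1.22 at 3 h, so that the difference went from 1.497 to -0.08 (range over time 1.58, adjusted p = 0.000144). UF3GT was 6.76 ± 2.05 in Bay-0 and 4.79 ± 0.891 in Sha at 3 h (range 1.24, adjusted p = 0.0133). The difference of both low-oxygen genes was smaller at 30 min than at 0 h. AT3G10040 went from 55.9 ± 11.6 in Bay-0 and 252 ± 37.5 in Sha at 0 h to 20.4 ± 5.01 and 26.2 ± 2.64 at 30 min (range 1.79, adjusted p = 8.54e-09). AT4G10270 went from 372 ± 68.3 and 946 ± 22.3 to 100.99 ± 22.3 and 143 ± 18.5 (range 1.12, adjusted p = 0.00145). Its difference was -1.33 at 0 h, -0.46 at 30 min, -0.20 at 1 h and, larger again, -0.73 at 3 h. PDF1.4 was 115 ± 14.8 and 113 ± 8.3 at 30 min, with a difference of 0.01 there (range 1.89, adjusted p = 3.34e-08). PDF1.2b was 8.14 ± 3.78 in Bay-0 at 3 h, against 4.62 ± 6.2 in Sha (range 1.80, adjusted p = 0.000543).

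The difference also changed with time for other genes called at 0 h. AT1G66860 went from 3.07 at 0 h to 0.95 at 3 h, as its Bay-0 signal went from 216 ± 62.6 to 38.8 ± 6.75 (adjusted p = 2.29e-09). AOP3 went from 5.14 to 3.32 with a Bay-0 signal of 225 ± 8.56 at 3 h, and was still called (adjusted p for the change = 0.000118). Its Sha arrays at 3 h read 17.8, 3.08 and 5.51, the highest in replicate 1, which stood apart as described above. AT2G38870, called higher in Bay-0 at 0 h by 1.21, stood at -0.58 at 30 min, the smallest p of this test among genes (adjusted p = 1.91e-11). GH3.3, which links auxin to amino acids, read 73.1, 76 and 101.3 in Bay-0 and 37.3, 19 and 36.5 in Sha at 0 h (1.097 ± 0.14, adjusted p = 8.28e-10). At 30 min it had reached 1421 ± 181 and 1451 ± 25.5, and the difference was -0.04 (adjusted p for the change = 0.000181). The difference of GH3.3 was 0.51 at 1 h and 0.70 at 3 h. Its call at 0 h was lost without Bay-0 replicate 3 (0.97) or Sha replicate 2 (0.90).

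**Figure D4:**
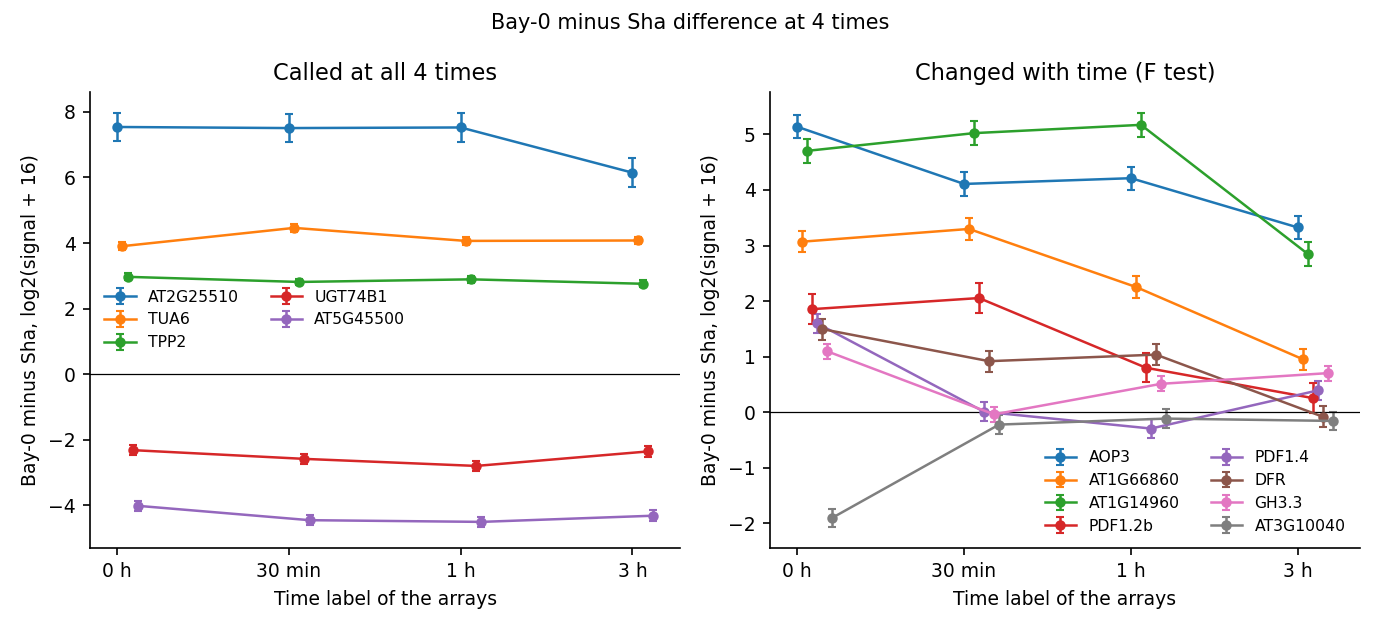
Bay-0 minus Sha difference on log2(signal + 16) at the 4 time labels (horizontal), with bars of 1 SE of the model. Left, 5 genes called at all 4 times; right, 8 genes whose difference changed with time, such as PDF1.4, at 1.60 at 0 h and 0.01 at 30 min, and AT3G10040, at -1.90 and -0.22.

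The other 5 accessions at 0 h show which parent stood apart, as a description with no test. On the log2 scale all 5 were nearer to Sha for 158 of the 600 calls and all 5 nearer to Bay-0 for 92. These are 26.3% and 15.3% of calls, close to the 25.1% and 15.7% among all tested probe sets. Col-0, on whose genome the probes were designed, was nearer to the higher accession for 177 of the 345 calls towards Bay-0 (51.3%) and for 157 of the 255 towards Sha (61.6%). No such share was computed over all tested probe sets, so nothing is read from these. AT2G15130 was high in Bay-0 alone among the 7, with 927 against a highest mean of 0.654 elsewhere, and AT3G30360 in Sha alone, with 123 against at most 1.91. AOP3 was high in Bay-0 and Bl-1 (725 and 445) and at most 5.13 in the other 5.

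For several genes it was the low level that was rare. TPP2 was 49.4 in Sha and between 366 and 496 in the other 6. TUA6 was low in Sha and in Fei-0, at 104 and 118, and between 1625 and 2379.5 elsewhere. ETP2 was 4.73 in Bay-0 and between 45 and 63.8 in the other 6, a low level found in Bay-0 alone. The plastid genes with the largest differences towards Sha were low in Bay-0 alone as well. Bay-0 and the other 6 read 179 and 605 to 1384 for rps2 and 246 and 625 to 1246 for psbB. For atpH they read 254 and 651 to 1324, for psaA 130 and 436 to 1094, and for atpF 420 and 1042 to 1622. The plastid gene ndhH stood less apart, at 20.0 in Bay-0, 34.9 in Col-0 and 78.2 in Sha. SQN was low in Bay-0 and Col-0, at 11.8 and 12.1, and between 66.3 and 111 elsewhere. SKU5 was 209 in Bay-0 and 252 in Bur-0 and between 979 and 1256 in the other 5, and ALDH6B2 was low in Bay-0 and C24, at 134 and 103. UGT74B1 split the accessions, with 97.4, 91.1 and 102 in Bay-0, Bur-0 and Fei-0 and between 372 and 539 in the other 4. CSA1 was high in C24 and Fei-0 (239.9 and 256), intermediate in Bay-0 and Col-0 (78 and 70.5) and under 7 in Sha, Bl-1 and Bur-0.

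**Figure D5:**
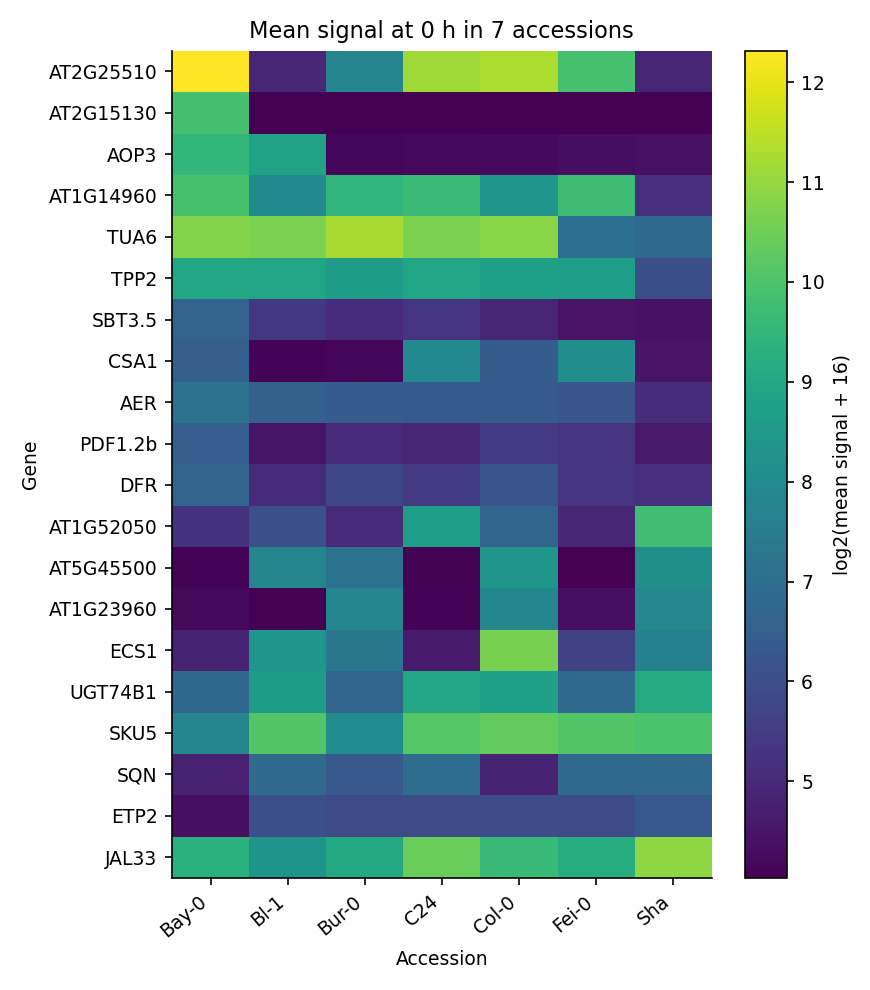
Mean signal at 0 h in 7 accessions (horizontal) of 20 genes called between Bay-0 and Sha (vertical), as log2(mean signal + 16) by colour. The first 11 genes from the top are higher in Bay-0 and the last 9 in Sha; the row of AT2G15130 is high in Bay-0 alone, and that of TPP2 is low in Sha alone.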

How the data were processed

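Total RNA of whole seedlings was hybridised to ATH1 arrays. The deposited values are linear signal intensities that the authors made with MAS5 in GCOS, per the submitters' processing notes, and the trimmed mean of each array is close to 100. They carry no detection calls, so no signal could be marked as below background. The number of arrays limits the precision. From these values log2(signal + 16) was computed. A filter removed the dimmest 30% of probe sets (6824), and 15922 were fitted with limma 3.58.1 in R 4.3.3 over all 83 arrays (28 groups of 2 or 3, 1 mean each, 55 residual degrees of freedom, trended prior), with Benjamini-Hochberg adjustment over all tested probe sets. The fit was tested on simulated data. Genes were named through GEO's platform annotation and RefSeq's TAIR10.1 gene table. Lists, families and adjacent pairs used 1 probe set per gene, the brightest, and the other named genes came from any probe set with 1 gene. Most families were picked by gene name, so relatives listed by locus number alone can be missing from their counts. The rule for named genes took the 15 largest differences and the 5 smallest p in each direction among non-overlapping calls, up to 4 called members of each gene list or family, the 5 smallest p and 5 largest ranges over time, and the 6 adjacent called pairs with the largest summed difference. Called genes with a symbol were added afterwards. Members and lists were chosen with earlier results of these data known. Same-numbered replicates did not deviate together at 0 h (r = -0.05, 0.02 and -0.08), while at 1 h the values were 0.03, 0.23 and 0.03. The numbers were not used to pair the arrays in the main fit, and these values cannot exclude a pairing. Alternatives changed the added constant, filter, scaling, arrays fitted, spread model, minimum fold and replicates.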

Additional observations from a re-analysis of the deposited data

Results flagged for a closer look

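The Bay-0 minus Sha difference changed between the times, by the moderated F test of limma, for 32 of the named genes, and each is given here with the range of its 4 differences on the log2 scale. The adjusted p ran from 1.91e-11 (AT2G38870) to 0.0483 (rpoA). Groups of 3 arrays are too small for a test of single outlying arrays.

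Among defence genes the ranges were 1.89 for PDF1.4, 1.80 for PDF1.2b, 1.25 for AT5G03350, 1.44 for CHI and 1.36 for WRKY53, a WRKY factor that was not called at 0 h. In metabolism they were 1.81 for AOP3, 1.58 for DFR, 1.24 for UF3GT, 1.16 for CYP71B23 and 1.37 for GILT, a thiol reductase. For hormone genes they were 1.13 for GH3.3 and 1.3 for ARR15, and for the low-oxygen genes 1.79 for AT3G10040 and 1.12 for AT4G10270. EXPA7, the root hair expansin, ranged over 1.05, the protease SBT3.5 over 1.38 and AT1G32970, the next tested gene, over 2.14. The exchanger CHX16 ranged over 1.21, the calmodulin-binding IQD22 over 1.05 and the plastid polymerase gene rpoA over 1.02.

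The genes listed by locus number had ranges of 2.83 for AT5G14650, 2.39 for AT3G62550, 2.34 for AT1G66860, 2.32 for AT1G14960, 2.25 for AT4G12500, 2.05 for AT3G18250, 1.80 for AT2G38870, 1.73 for AT5G35940, 1.67 for AT4G02850, 1.58 for AT2G41730, 1.42 for AT1G67750 and 1.19 for AT5G26260. AT3G18250 went from 146 ± 18.4 in Bay-0 and 32.7 ± 1.76 in Sha at 0 h to 550.5 ± 100.1 and 309 ± 39 at 3 h. AT2G38870 went from 986 ± 109 and 419 ± 70.5 to 908 ± 63.1 and 1367 ± 28 at 30 min, so the accession with the higher mean changed.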

How the results depend on the processing

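The constant added to the signals and the minimum fold moved the counts by over 1.5 times. With 1 added 621 probe sets were higher in Bay-0 and 586 in Sha at 0 h, and with 64 added 145 and 82, with 160 in place of 472 changing with time. The share higher in Bay-0 was 51.4% and 63.9%, against 57.5%. By the adjusted p alone the counts were 1992 and 2491, and at 4-fold 75 and 35. Leaving out each 0 h array in turn gave 339 to 380 and 247 to 277, and leaving out each Sha array at 3 h gave 298 to 309 and 256 to 281 calls at 3 h and 458 to 482 changing with time. The other settings stayed within 1.5 times: no filter gave 367 and 271, the lowest 50% left out 247 and 194, quantile normalization 355 and 246, equal array medians 361 and 233, the untrended prior 345 and 254, the 21 arrays at 0 h 345 and 255 and the 6 arrays alone 346 and 255. A fit with a replicate block gave 346 and 255; it changed no call of a named gene, and the numbers are not shown to pair the arrays. Of the 600 calls 597 remained with 1 added, 226 with 64 added and 539 to 556 in the fits without 1 array, and 0 were reversed in any setting. Of the 105 called named genes 37 were no longer called with 64 added. Besides those given in the report, rpl14 stood at -0.94, rpoB at 0.59, rpoC2 at -0.92, ndhH at -0.72, atpI at -0.56, GH3.3 at 0.64, UGT72E3 at 0.52, SBT4.12 at -0.96, BGLU16 at 0.82, ATGSTF13 at 0.66, KICP-02 at -0.44, IQD22 at 0.48, GILT at -0.54, CCOAMT at 0.42 and SK18 at -0.55. With 1 added GILT and CHI were no longer called (adjusted p = 0.069 and 0.0843), and with equal array medians GILT and SK18 were not. The kinesin-like KICP-02 (-0.88 without Bay-0 replicate 3), CCOAMT (0.81 without Sha replicate 3), SBT4.12 (-0.91 without Bay-0 replicate 3), SK18 (-0.92 without Bay-0 replicate 1), GILT (-0.94 without Sha replicate 3) and IQD22 (0.79 without Sha replicate 2) were lost without 1 array. The cause of these changes was not tested. The weak signals under 16 limit what the array can separate, and a ratio there depends on the constant.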

Other observations

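Of the tested genes on the auxin, flowering and clock lists GH3.3 was the only one called. On the auxin signalling list 0 of 3 were called by limma at 2-fold, while IAA18, a repressor of auxin response, gave 106 ± 20.9 in Bay-0 and 75.1 ± 7.91 in Sha (0.41 ± 0.12, adjusted p = 0.00893) and IAA30 gave 5.21 ± 2.83 in Bay-0 and 15.1 ± 1.42 in Sha (-0.56 ± 0.13, adjusted p = 0.000424) without the minimum fold. On the list for auxin metabolism and transport 1 of 6 was called, GH3.3, and GH3.17, which also conjugates auxin, gave 353 ± 62.8 in Bay-0 and 222 ± 26 in Sha (0.62 ± 0.16, adjusted p = 0.00191). The flowering regulator LD gave 82.5 ± 20.0 in Bay-0 and 47.1 ± 5.57 in Sha (0.63 ± 0.15, adjusted p = 0.000529) and FY 59.1 ± 3.37 in Bay-0 and 74.2 ± 3.54 in Sha (-0.26 ± 0.14, adjusted p = 0.143). GI, of the circadian clock, gave 121 ± 12.7 in Bay-0 and 86.7 ± 18.8 in Sha (0.42 ± 0.13, adjusted p = 0.00991).

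On the list of nuclear photosynthesis genes 0 of 3 were called by limma at 2-fold, and 2 passed its adjusted p at any fold. LHCB4.1 gave 1681 ± 199 in Bay-0 and 2243 ± 224 in Sha (-0.42 ± 0.14, adjusted p = 0.0155) and its paralog LHCB4.2 gave 887 ± 91.3 in Bay-0 and 555 ± 127 in Sha (0.68 ± 0.16, adjusted p = 0.000644), so these antenna proteins of photosystem II lay in opposite directions. Of 5 touch and rapid stress genes 0 were called by limma at 2-fold and 0 passed its adjusted p at any fold, with a median of 0.18, and the same held for 5 WRKY factors, with a median of 0.18. STZ, a zinc finger protein of stress responses, gave 269 ± 66.4 in Bay-0 and 231 ± 103 in Sha, with arrays that varied more within an accession than the means differed. COR47, a cold-induced dehydrin, gave 509.9 ± 48.2 in Bay-0 and 477 ± 39.9 in Sha and LTI30 126 ± 9.02 in Bay-0 and 81.2 ± 18.6 in Sha (0.57 ± 0.18, adjusted p = 0.0122). CCS, the copper chaperone of superoxide dismutase, gave 236 ± 14.7 in Bay-0 and 201 ± 37.3 in Sha, the iron regulator PYE 32.5 ± 4.48 in Bay-0 and 48.8 ± 15.7 in Sha (-0.40 ± 0.14, adjusted p = 0.0209), and SIR, the sulfite reductase, 947 ± 40.5 in Bay-0 and 885 ± 100.4 in Sha. BIK1, a kinase of pattern-triggered immunity, gave 163 ± 14.3 in Bay-0 and 176 ± 24.4 in Sha. Of the 2 tested genes on the list of genes known to vary among accessions TUA6 was called, and the orphan gene QQS was at the floor in both, at 1.3 ± 1.36 in Bay-0 and 2.96 ± 2.92 in Sha. Lists for nitrate and phosphate, heat shock, cell cycle, gene silencing, seed storage and flower or pollen had no tested member and were not analysed here.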
